A study of Mus musculus with 6 samples.

Results

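The enzymes that place and remove methyl and acetyl groups on histones were examined in the liver of mouse offspring at 32 weeks of age, with 3 arrays of each group, CR-CD and CD-CD. The members were 58 genes taken by symbol. Of these, 55 had a probe set that the platform annotation assigns to that symbol alone, among 22180 genes measured in this way. Kdm2b was covered by a probe set that it shares with another symbol, and Suv39h1 and Suv39h2 had no annotated probe set, so these 3 genes were not analysed here. The offspring were male C57BL mice. CR-CD offspring were born from dams fed a chromium-restricted diet during pregnancy and lactation and received the control diet from weaning, and CD-CD offspring and their dams received the control diet throughout. Both groups thus shared the same diet after weaning. Neither the labels nor the methods state if an array stands for its own animal or litter, so every p value measures the spread between these arrays, which may be technical or shared by littermates.

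Histones are the proteins around which DNA is wrapped. Methyltransferases and acetyltransferases, called writers, modify lysines in their tails, and demethylases and deacetylases, called erasers, remove the modification. Acetylation accompanies open chromatin and active genes. The meaning of methylation depends on the lysine, since the Kmt2 and Setd1 enzymes mark active promoters and enhancers while Polycomb repressive complex 2 and the Ehmt and Suv39h enzymes mark silent genes. In the liver these enzymes act as cofactors of the receptors and transcription factors that respond to feeding, hormones and the day cycle, and their cofactors (acetyl-CoA, S-adenosylmethionine, NAD and 2-oxoglutarate) come from intermediary metabolism.

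The values are log2 signals as the authors normalized them. Where a gene had more than 1 probe set the brightest was taken, and groups were compared with limma, with p adjusted over all 22180 genes. The words rose and fell refer to CR-CD relative to CD-CD and to genes with an adjusted p under 0.05. Between 5.28 for Hdac9 and 9.91 for Sirt2, the mean signals of the members lay mostly in the upper range of the arrays, and 54 of the 55 exceeded the 40th percentile of all genes. The hepatocyte markers fixed for the check of the tissue (among them Alb and Apoa1) had a median signal of 12.46, with a median log2 fold change of 0.00 between the groups. All 7 macrophage markers had a higher mean in CR-CD, none past the adjusted p, with a median log2 fold change of 0.61. Their summed signal on the log2 scale was 11.01 to 11.64 in the CR-CD arrays and 10.26 to 10.93 in the CD-CD arrays. The part of the macrophage signal in the values of the enzymes was not tested. In whole liver, fewer cells of a type and less RNA per cell cannot be told apart.

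Of the 55 enzymes, 4 fell in CR-CD and 0 rose, against 0.699% and 0.784% of all genes that fell and rose (1.48% in either direction, and 2.38% among genes above the 40th percentile). The single-gene test named in the methods, with the same adjustment, also called 4 members, against 1.24% of all genes, and the fit with a replicate block 3, against 1.53%. The 4 genes were Crebbp, Kmt2b, Kdm2a and Kdm6b, an acetyl writer, a methyl writer and 2 methyl erasers. In 3 of them, Crebbp, Kmt2b and Kdm2a, the values of 1 group are written in a longer number format, with 9 decimals at the median against 6 elsewhere. Values in this format were found in 324 of all genes (1.46%) and in 3 of the members (5.45%), and 315 of the 324 passed the adjusted p. The methods do not describe the format, and its part in the 3 falls was not tested. The methods called genes at a 1.5-fold change with an unadjusted p up to 0.05, and the same 3 members passed these thresholds, all of them lower in CR-CD, against 1.67% of all genes in either direction and 0.757% lower. In a limma fit that left out every probe set with such a value, 0 of 52 members and 0 of 21878 genes (0.0%) had an adjusted p under 0.05, while 11 members and 1091 genes (4.99%) had an unadjusted p of at most 0.05.

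**Figure D1:**
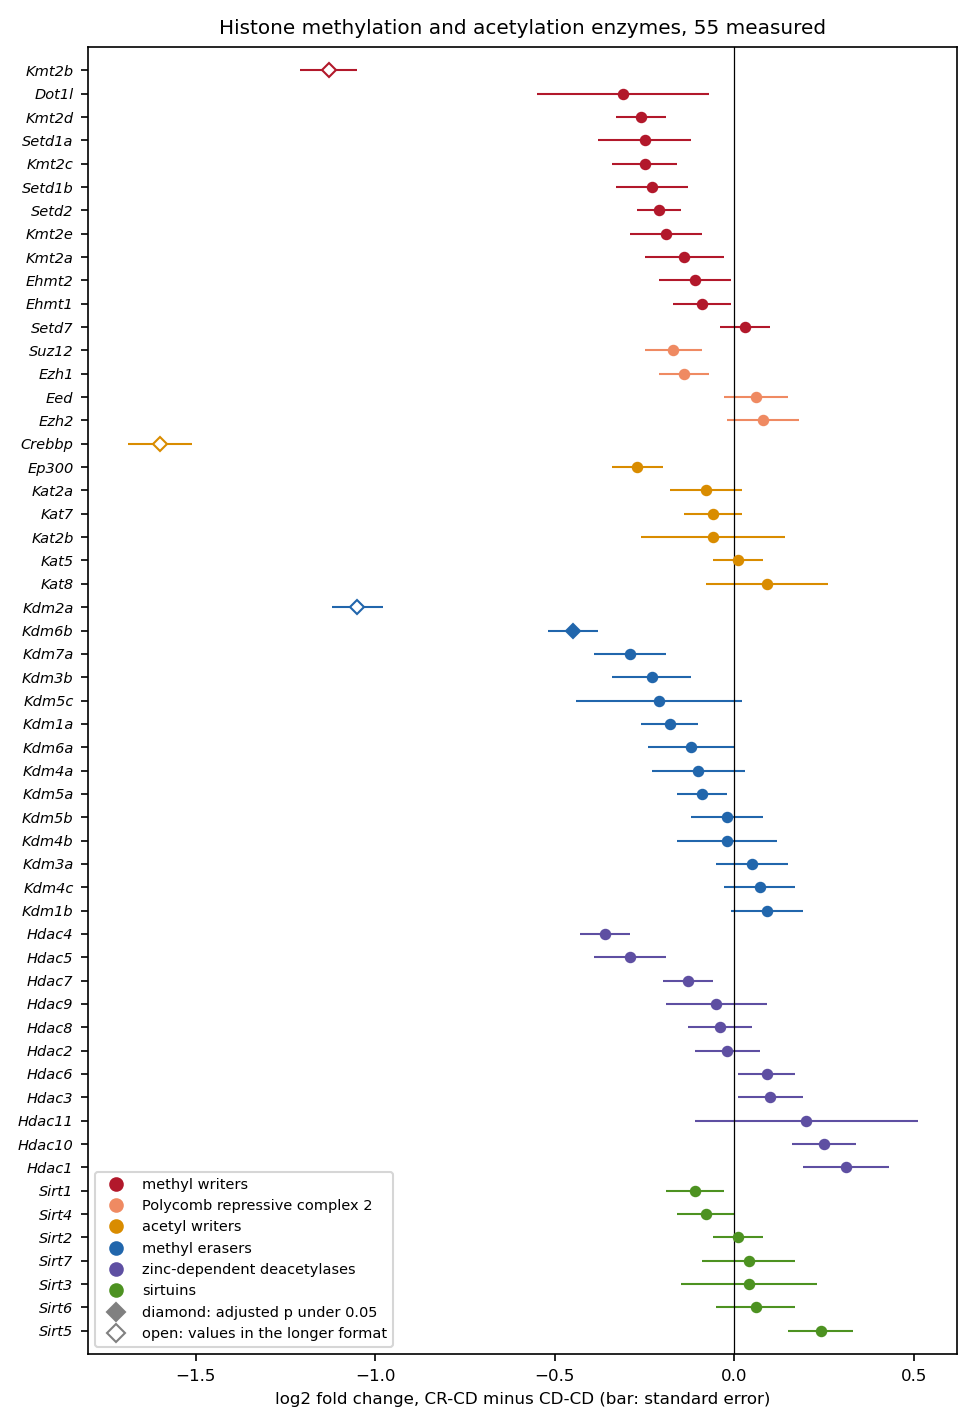
Log2 fold change (x axis, CR-CD minus CD-CD, bars are standard errors from limma) of the 55 measured enzymes, coloured by class. Crebbp at -1.60, Kmt2b at -1.13 and Kdm2a at -1.05, drawn open because 1 group holds values in the longer number format, lie apart from the other members, which range from -0.45 to 0.31.

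Crebbp encodes CBP, an acetyltransferase that coactivates CREB, nuclear receptors and many other factors. Its signals were 7.90, 8.03 and 8.12 in the CR-CD arrays and 9.72, 9.58 and 9.56 in the CD-CD arrays. The groups were 1.43 apart at their closest arrays, and Crebbp fell by 1.60 on the log2 scale (SE, the standard error, 0.09, limma adjusted p = 8.52e-05). All 3 CR-CD values were in the longer format and no CD-CD value was. Among the 165 genes with this arrangement, 15 were lower in CR-CD, Crebbp among them.

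Ep300 encodes p300, the closest relative of CBP, with which it shares most domains and many target sites. Its signals were 7.91, 7.99 and 7.85 in CR-CD and 8.14, 8.22 and 8.22 in CD-CD. Every CR-CD array was below every CD-CD array, by 0.15 at the closest, but the log2 fold change of -0.27 (SE 0.07) had an adjusted p of 0.301 from limma. All Ep300 values were in the usual format. Within an array, Crebbp minus Ep300 was -0.02, 0.04 and 0.27 in CR-CD and 1.58, 1.36 and 1.34 in CD-CD. The probe sets differ in their own brightness, so only the shift of this difference between the groups, -1.33, can be read. The pair was chosen because Crebbp was called, so the shift is given as a description with no test.

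The 250 bases before the annotated start of Crebbp and Ep300 are shown because this related pair holds the largest change among the members and a smaller, uncalled difference in the same direction. They are taken from RefSeq on GRCm38.p6, in capitals where GGGCGG or its complement, the GC box bound by Sp factors, occurs, with overlapping matches joined. The Crebbp window is chr16:4213405-4213654 on the minus strand and the Ep300 window chr15:81585964-81586213 on the plus strand.
Crebbp: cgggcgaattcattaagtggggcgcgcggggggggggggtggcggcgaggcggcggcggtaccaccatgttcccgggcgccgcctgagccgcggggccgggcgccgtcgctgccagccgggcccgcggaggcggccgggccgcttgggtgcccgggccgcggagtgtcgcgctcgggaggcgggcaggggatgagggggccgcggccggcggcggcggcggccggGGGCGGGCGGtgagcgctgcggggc
Ep300: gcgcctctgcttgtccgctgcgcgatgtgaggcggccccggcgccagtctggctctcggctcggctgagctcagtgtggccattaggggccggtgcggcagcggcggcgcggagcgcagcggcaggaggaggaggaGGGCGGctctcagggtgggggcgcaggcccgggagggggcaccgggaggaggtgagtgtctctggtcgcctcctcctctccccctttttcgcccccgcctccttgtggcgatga
The Crebbp window had a GC content of 84.0% with 44 CpG sites and 2 overlapping GC boxes. The Ep300 window had a GC content of 73.2% with 25 CpG sites and 1 GC box. Neither held TATAAA, the letters of the TATA box, on either strand. The CCAAT box and the cAMP response element, searched as TGACGTCA, were also without a match. Among all 32851 windows of the same length in the table, the median GC content was 52.4% with 6 CpG sites, and 32.7% held a GC box, 33.8% a CCAAT box, 12.4% a TATA box and 1.55% the cAMP response element. Of the measured members, 44 had a window in this table, with a median GC content of 60.8% over their 57 windows. Of these 57 windows, 32 (56.1%) held a GC box. These matches describe the letters in the windows.

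Kmt2b, a writer of the promoter methylation mark that belongs to the MLL family, had signals of 6.74, 6.82 and 6.57 in CR-CD and 7.81, 7.87 and 7.83 in CD-CD. The groups were 0.99 apart at their closest, and Kmt2b fell by 1.13 on the log2 scale (SE 0.08, limma adjusted p = 0.000383). Kdm2a, a demethylase that binds CpG islands, had signals of 8.45, 8.35 and 8.45 in CR-CD and 9.51, 9.44 and 9.45 in CD-CD. The groups were again well apart, by 0.98, and Kdm2a fell by 1.05 (SE 0.07, limma adjusted p = 0.000209). In both genes the 3 CD-CD values, not the CR-CD values, were in the longer format. Among the 122 genes with that arrangement, 115 were lower in CR-CD. Crebbp, Kmt2b and Kdm2a each had a single probe set of their own symbol, so no second measurement of these genes could be set beside the first. Each passed the adjusted p in all 14 alternative analyses in which its probe set was kept (highest adjusted p 0.00695, 0.0148 and 0.00415 for Crebbp, Kmt2b and Kdm2a).

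Kdm6b, also known as JMJD3, removes the repressive mark that Polycomb repressive complex 2 places, and is known as an inducible gene in macrophages. Its signals were 7.52, 7.47 and 7.45 in CR-CD and 7.87, 7.94 and 7.99 in CD-CD. The groups did not overlap, and Kdm6b fell by 0.45 on the log2 scale (SE 0.07, limma adjusted p = 0.0183). It was 1 of the 14 genes past the adjusted p whose values were all in the usual format. The call was near the threshold: with the replicate number as a block the adjusted p was 0.0784 at an unchanged log2 fold change of -0.45, and it lay between 0.0568 and 0.115 without any 1 of the CR-CD arrays or without CD-CD replicates 2 or 3 (0.0333 without CD-CD replicate 1), with log2 fold changes from -0.48 to -0.42 when 1 array was left out. The adjusted p was 0.681 when the probe sets in the longer format were left out of the fit, and the log2 fold change stayed at -0.45. A second, dimmer probe set of Kdm6b had signals of 5.33, 5.29 and 5.48 in CR-CD and 5.38, 5.66 and 5.47 in CD-CD. These overlapped, with a log2 fold change of -0.14 (SE 0.09, limma adjusted p = 0.927, all probe sets tested). With the mean of both probe sets, Kdm6b had a log2 fold change of -0.30 and an adjusted p of 0.241. Kdm6a, the X-linked enzyme with the same substrate, had a log2 fold change of -0.12 (SE 0.12, adjusted p = 0.954). The Kdm6b to Kdm6a difference shifted by -0.33 between the groups, a description with no test.

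**Figure D2:**
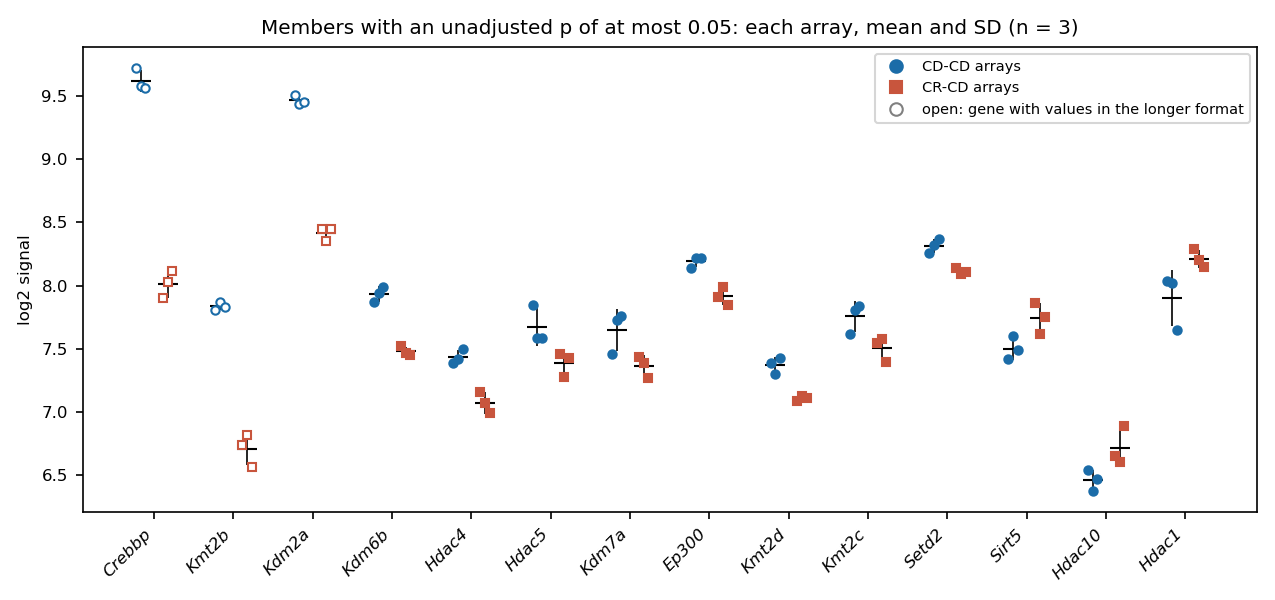
Log2 signal (y axis) on each array for the 14 enzymes with an unadjusted p of at most 0.05, with the mean and SD of 3 arrays per group. CD-CD lies above CR-CD without overlap in the 11 genes on the left, from Crebbp to Setd2, and below it in Sirt5, Hdac10 and Hdac1.

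Besides the 4 genes that fell, 10 members had an unadjusted p of at most 0.05 without passing the adjusted p. In all, 11 members had such a p with a lower mean in CR-CD and 3 with a higher mean, which is 25.5% of the 55. Over all genes 6.38% had such a p in either direction, 3.12% lower and 3.26% higher. These backgrounds were 9.32% in either direction, 4.61% lower and 4.70% higher when only the genes above the 40th percentile were counted. Without CR-CD replicate 3, the count of members fell from 14 to 9, and the matching share of all genes was not counted. Leaving aside the 3 genes with values in the longer format, the count of members was 11 of 52 (21.2%), 8 lower and 3 higher. Of the genes in the usual format 5.0% had such a p in either direction, 2.48% lower and 2.51% higher. Above the 40th percentile the share in either direction was 7.14%. By position of the arrays, the CR-CD values lay below all CD-CD values in 16 members and above them in 4, against 5.77% and 5.63% of all genes (6.42% and 6.68% above the 40th percentile). In the usual format 13 of 52 members lay below, against 5.17% of genes. The mean was lower in CR-CD in 37 of the 55, against 49.3% of all genes and 48.2% of those above the 40th percentile.

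Of 12 methyl writers measured, 1 fell (Kmt2b), 0 rose and 11 did not pass, and 11 of the 12 means were lower, with a median log2 fold change of -0.22. Over all genes the median was 0.00, 0.699% fell and 49.3% had a lower mean. Kmt2d, a writer of enhancer methylation, had signals of 7.09, 7.13 and 7.11 in CR-CD and 7.39, 7.30 and 7.43 in CD-CD. The groups did not overlap, but the log2 fold change of -0.26 (SE 0.07) had an adjusted p of 0.305 from limma. Its partner Kmt2c was at 7.55, 7.58 and 7.40 in CR-CD and 7.62, 7.81 and 7.84 in CD-CD, also without overlap, with a log2 fold change of -0.25 (adjusted p = 0.714). Setd2, which methylates histones along transcribed genes, was at 8.14, 8.09 and 8.11 in CR-CD against 8.26, 8.32 and 8.37 in CD-CD. That separation was small, a log2 fold change of -0.21 (SE 0.06, adjusted p = 0.569). Kmt2a, the closest relative of Kmt2b, had overlapping groups, with 7.14, 7.34 and 6.92 in CR-CD and 7.24, 7.25 and 7.33 in CD-CD, a log2 fold change of -0.14 (SE 0.11, adjusted p = 0.936). The Kmt2b to Kmt2a difference shifted by -0.99 between the groups, also a description with no test. The brightest methyl writer was Kmt2e, which keeps a SET domain but has little known enzyme activity, at 8.52 ± 0.16 for CR-CD and 8.71 ± 0.08 for CD-CD (SD, n = 3). The dimmest was Setd7, at 5.65 ± 0.06 and 5.62 ± 0.07, the single methyl writer with a mean that was not lower. Setd1a, Setd1b, Ehmt1, Ehmt2 and Dot1l had log2 fold changes between -0.31 and -0.09, none with an adjusted p under 0.05.

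None of the 4 measured subunits of Polycomb repressive complex 2 passed the adjusted p. Its catalytic subunits are Ezh1, which prevails in resting cells, and Ezh2, which prevails in dividing cells. Ezh1 was at 7.77, 7.74 and 7.80 in CR-CD and 8.02, 7.84 and 7.89 in CD-CD, and Ezh2 at 6.47, 6.34 and 6.21 against 6.40, 6.22 and 6.16. The Ezh1 arrays were separated by 0.04 and those of Ezh2 overlapped, with log2 fold changes of -0.14 and 0.08 (limma adjusted p = 0.829 and 0.970). The scaffold Suz12 had a log2 fold change of -0.17 (SE 0.08, adjusted p = 0.835) and Eed, which binds the finished mark, of 0.06 (SE 0.09, adjusted p = 0.990). The mean was lower in CR-CD in 2 of the 4, against 49.3% of all genes.

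Among 14 measured methyl erasers, 2 fell (Kdm2a and Kdm6b), 0 rose and 12 did not pass, against 0.699% of all genes that fell and 0.784% that rose. Of the 14 means, 11 were lower, against 49.3% of all genes, with a median log2 fold change of -0.11. Kdm7a, a demethylase of repressive marks, was at 7.44, 7.39 and 7.27 in CR-CD and 7.46, 7.73 and 7.76 in CD-CD. The groups were separated by 0.03, and the log2 fold change of -0.29 had a standard error of 0.10 (limma adjusted p = 0.684). Kdm1a, the flavin-dependent demethylase LSD1, was the dimmest of the class, at 6.84 ± 0.06 for CR-CD and 7.01 ± 0.11 for CD-CD (SD, n = 3, log2 fold change -0.18, adjusted p = 0.812). The brightest after Kdm2a was Kdm5c, an X-linked eraser of the promoter mark, with 8.36, 7.90 and 7.95 in CR-CD and 8.77, 7.91 and 8.16 in CD-CD. Its replicate 1 arrays were the highest of both groups, and without CD-CD replicate 1 its log2 fold change went from -0.21 to 0.03. The other erasers of the class, Kdm1b, Kdm3a, Kdm3b, Kdm4a, Kdm4b, Kdm4c, Kdm5a and Kdm5b, had log2 fold changes between -0.23 and 0.09.

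**Figure D3:**
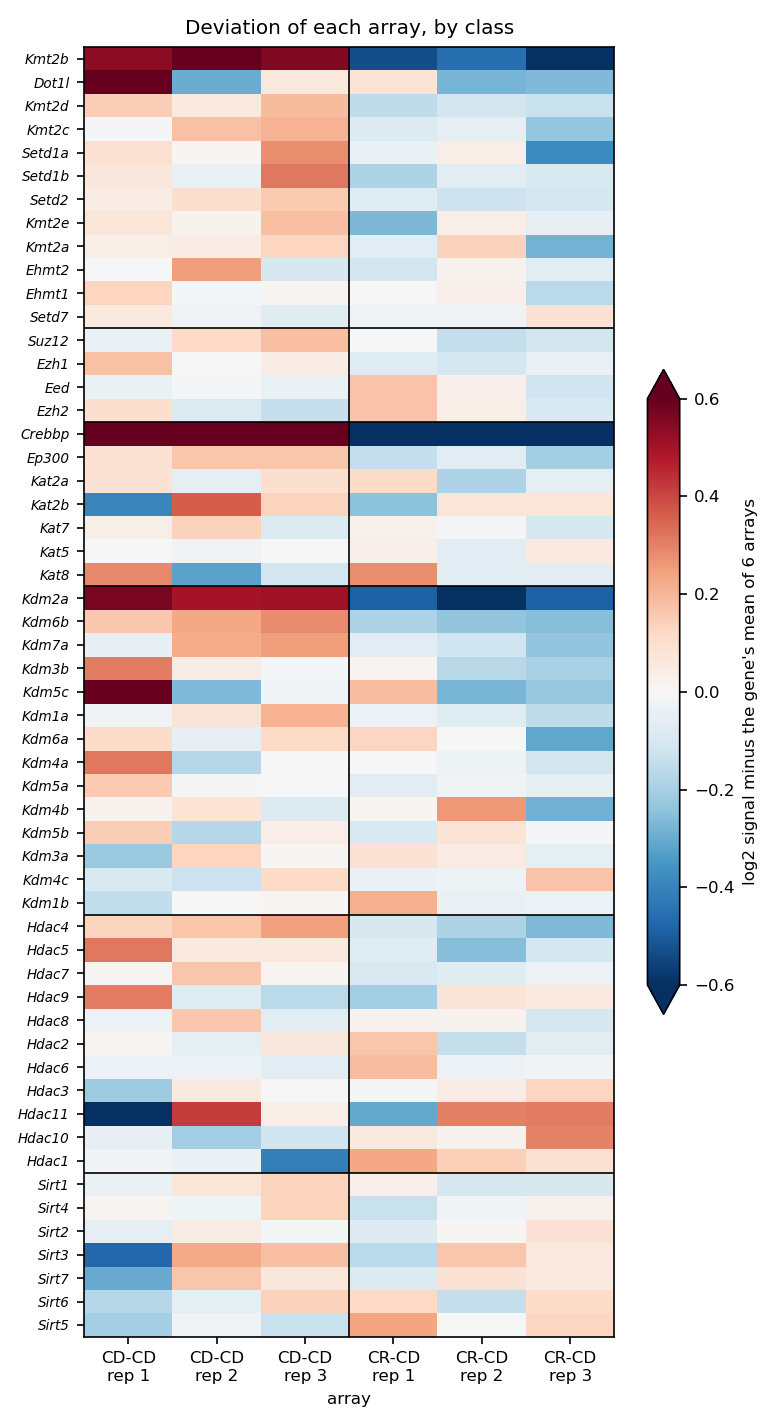
Log2 signal of each array minus the mean of the 6 arrays for the 55 enzymes (rows, by class from methyl writers at the top through Polycomb repressive complex 2, acetyl writers, methyl erasers and zinc-dependent deacetylases to sirtuins; columns are arrays). The methyl writers are mostly red in CD-CD and blue in CR-CD, while Hdac11, Sirt3 and Kat2b are low in the replicate 1 arrays of both groups. Colours stop at -0.6 and 0.6.

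Of 7 acetyl writers, 1 fell (Crebbp), 0 rose and 6 did not pass, against 0.699% of all genes that fell and 0.784% that rose. Leaving out Crebbp, the log2 fold changes ran from -0.27 for Ep300 to 0.09 for Kat8. Kat2b, the coactivator PCAF, was the brightest of the class, at 8.96, 9.28 and 9.28 in CR-CD and 8.81, 9.57 and 9.34 in CD-CD. Its arrays overlapped, with replicate 1 the lowest of each group (log2 fold change -0.06, SE 0.20, limma adjusted p = 0.999). Kat5, the catalytic subunit of the NuA4 complex, was the dimmest and had nearly equal means of 6.81 ± 0.07 and 6.80 ± 0.01 (SD, n = 3). Kat2a, Kat7 and Kat8 likewise had overlapping groups, and none passed.

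None of the 11 zinc-dependent deacetylases passed, and 6 of their means were lower in CR-CD, against 49.3% of all genes, with a median log2 fold change of -0.02. The class IIa enzymes, signal-dependent corepressors that shuttle between nucleus and cytoplasm, all had lower means in CR-CD, with log2 fold changes of -0.36 for Hdac4, -0.29 for Hdac5, -0.13 for Hdac7 and -0.05 for Hdac9. Hdac4 was at 7.16, 7.07 and 6.99 in CR-CD and 7.39, 7.42 and 7.50 in CD-CD. Its groups were 0.23 apart (SE 0.07, limma adjusted p = 0.110), and the adjusted p was 0.0496 after quantile normalization and between 0.105 and 0.949 in the other alternatives. Hdac5 was at 7.46, 7.28 and 7.43 in CR-CD and 7.85, 7.59 and 7.59 in CD-CD, 0.13 apart (SE 0.10, adjusted p = 0.663). Hdac9, the dimmest member of all, overlapped at 5.26 ± 0.15 and 5.30 ± 0.25 (SD, n = 3). The class I enzymes are mainly nuclear, and Hdac1, Hdac2 and Hdac3 are catalytic subunits of corepressor complexes. Hdac1 was at 8.29, 8.20 and 8.15 in CR-CD and 8.04, 8.02 and 7.65 in CD-CD, higher in CR-CD by 0.10 at the closest arrays, with a log2 fold change of 0.31 (SE 0.12, adjusted p = 0.738) that was 0.18 without CD-CD replicate 3. Its relative Hdac2 had a log2 fold change of -0.02 with overlapping arrays. Hdac3, the subunit of the nuclear receptor corepressor complexes, was the brightest zinc-dependent deacetylase at 8.79 ± 0.07 and 8.68 ± 0.14 (SD, n = 3, log2 fold change 0.10, adjusted p = 0.941). Hdac10, a cytoplasmic polyamine deacetylase, was at 6.65, 6.61 and 6.89 in CR-CD and 6.54, 6.38 and 6.47 in CD-CD. These arrays were 0.07 apart, with a log2 fold change of 0.25 (adjusted p = 0.729). Hdac6 and Hdac8 had log2 fold changes of 0.09 and -0.04. Hdac11 had the widest spread of the members, from 6.86 to 8.05 among the CD-CD arrays, and a second probe set with a log2 fold change of -0.17 against 0.20 in the brighter.

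The 7 sirtuins, deacylases that consume NAD, did not pass in either direction. In CR-CD 5 of their means were higher and 2 lower, against 49.3% of all genes that were lower. Sirt2, which acts mainly in the cytoplasm, had the highest mean signal of the members and nearly equal groups, at 9.92 ± 0.08 for CR-CD and 9.91 ± 0.05 for CD-CD (SD, n = 3, log2 fold change 0.01, SE 0.07). Sirt5, a mitochondrial desuccinylase, was at 7.86, 7.62 and 7.75 in CR-CD and 7.42, 7.60 and 7.49 in CD-CD. These were separated by 0.03, with a log2 fold change of 0.24 (SE 0.09, limma adjusted p = 0.710). Sirt3, the main mitochondrial deacetylase, had overlapping arrays (8.25 ± 0.17 and 8.21 ± 0.39, SD, n = 3). Sirt4 was the dimmest at 5.96 ± 0.08 and 6.04 ± 0.08. Sirt1, Sirt6 and Sirt7, the nuclear sirtuins, had log2 fold changes of -0.11, 0.06 and 0.04.

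Set side by side, the 23 writers (the Polycomb subunits included) and the 32 erasers had median signals of 7.68 and 7.52 over the 6 arrays, against 5.81 over all genes. Signals of different probe sets also depend on their probes, so these medians do not rank the classes by RNA abundance. Of the writers, 2 fell and 18 had a lower mean in CR-CD, with a median log2 fold change of -0.14. Of the erasers, 2 fell and 19 had a lower mean, with a median of -0.03. The eraser classes differed among themselves. A lower mean was found in 11 of 14 methyl erasers (median -0.11), 6 of 11 zinc-dependent deacetylases (-0.02) and 2 of 7 sirtuins (0.04). Over all genes 0.699% fell, 49.3% had a lower mean and the median was 0.00. Groups did not overlap in 8 writers, all lower in CR-CD, and in 12 erasers, 8 lower and 4 higher, against 5.77% lower and 5.63% higher over all genes. The 4 higher were Hdac1, Hdac6, Hdac10 and Sirt5. Some of these separations were very small, with gaps of at most 0.02 in Setd1b, Kdm1a, Kdm5a and Hdac6. Leaving aside the genes in the longer format, the medians were -0.14 for 21 writers and -0.02 for 31 erasers. On single arrays, the median deviation of the writers from each gene's own mean was -0.06, -0.06 and -0.10 in CR-CD and 0.07, 0.02 and 0.13 in CD-CD. For the erasers it was -0.02, -0.03 and -0.04 in CR-CD and -0.02, 0.04 and 0.03 in CD-CD. The pooled eraser median of CD-CD replicate 1 thus lay among those of CR-CD. This did not hold for the methyl erasers alone, at -0.02, -0.04 and -0.18 in CR-CD and 0.13, 0.02 and 0.03 in CD-CD. On CD-CD replicate 1 the zinc-dependent deacetylases were at -0.01 and the sirtuins at -0.17. The difference between the classes was not tested.

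**Figure D4:**
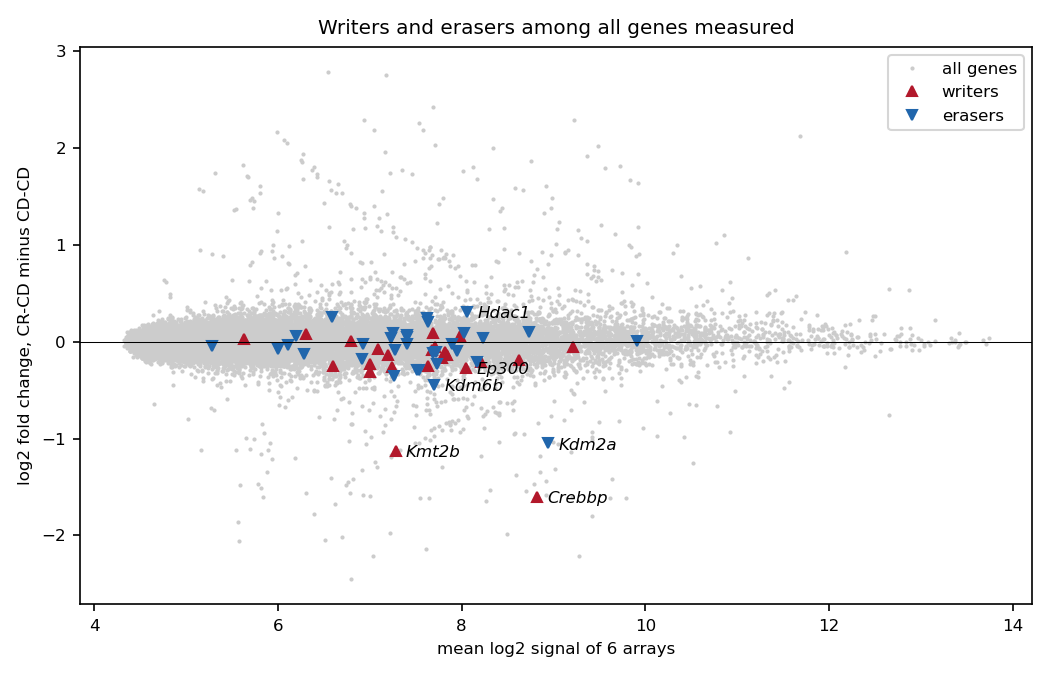
Log2 fold change (y axis, CR-CD minus CD-CD) against mean log2 signal of the 6 arrays (x axis) for all 22180 genes in grey, the 23 measured writers as red triangles and the 32 measured erasers as blue inverted triangles. Most members lie near 0 in the middle of the signal range, and Crebbp, Kmt2b and Kdm2a lie well below.

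The members differed in how steady they were within a group. The median SD was 0.10 in both groups, as over all genes (0.10 in CR-CD and 0.11 in CD-CD). An SD above 0.2 was found within CD-CD in 10 members and within CR-CD in 8, and the share of all genes above it was not counted. In 9 of the 10, CD-CD replicate 1 was the array farthest from the others of its group. These 9, chosen after their values were seen, were Kdm4a, Kdm5c, Dot1l, Hdac9 and Kat8, in which that array was high, and Hdac11, Sirt3, Sirt7 and Kat2b, in which it was low. In 8 of the 9, Hdac9 being the exception, CR-CD replicate 1 was also the highest or lowest of its group on the same side. Dot1l, which methylates the histone core along active genes, was at 7.08, 6.72 and 6.73 in CR-CD and 7.69, 6.70 and 7.06 in CD-CD. Hdac11 showed the opposite pattern, at 7.32, 7.93 and 7.94 in CR-CD and 6.86, 8.05 and 7.67 in CD-CD. Crebbp, Kmt2b, Kdm2a and Kdm6b had SDs of at most 0.13 in either group.

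Subunits of the complexes that carry these enzymes, other histone-modifying enzymes and genes of cofactor supply gave a further 156 measured genes. Of these, 1 rose, 6 fell and 149 did not pass, and all 7 that passed held values in the longer format. Over all genes 0.784% rose, 0.699% fell and 1.46% held such values. Of 28 measured genes of deacetylase complexes, 4 fell, 0 rose and 24 did not pass, with a median log2 fold change of -0.10. The 4 were Gatad2b, Mta1, Chd3 and Chd4, each known as a subunit of NuRD, a complex that joins Hdac1 and Hdac2 to a chromatin remodeler. Gatad2b was at 8.54, 8.61 and 8.42 in CR-CD and 10.3, 10.31 and 10.34 in CD-CD, and fell by 1.80 on the log2 scale (SE 0.07, limma adjusted p = 3.02e-05). Mta1 fell by 1.31 (SE 0.06, adjusted p = 6.12e-05). The remodelers Chd3 and Chd4 fell by 0.63 and 0.62 (adjusted p = 0.0061 and 0.00637), and a second probe set of Chd3 in the usual format had a log2 fold change of -0.01 (SE 0.13) at signals of 6.46 and 6.47. The NuRD subunits were tallied after these calls were seen, and 9 of the 13 did not pass. Gatad2a, the relative of Gatad2b, was at a log2 fold change of -0.46 (adjusted p = 0.0826), with all its values in the usual format. Mta2, Mta3, Mbd2, Mbd3, Rbbp4, Rbbp7, Hdac1 and Hdac2 lay between -0.12 for Mbd2 and 0.31 for Hdac1.

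Of 41 measured genes of acetyltransferase complexes, 1 fell, Atxn7l3, a subunit of the deubiquitinase module of the SAGA complex that holds Kat2a. Its signals were 6.53, 6.56 and 6.53 in CR-CD and 8.69, 8.68 and 8.68 in CD-CD, and fell by 2.14 (SE 0.06, limma adjusted p = 1.91e-05). Of 8 arginine methyltransferases, Carm1, a coactivator that works with CBP and p300, fell by 0.59 (SE 0.07, adjusted p = 0.00736) and the other 7 did not pass. Of 10 further acetyl writers, Naa40, which acetylates the amino terminus of histones, rose by 1.08 (SE 0.06, adjusted p = 0.000148). A second probe set of Naa40 in the usual format, at signals of 4.49 and 4.43, had a log2 fold change of 0.06 (SE 0.06). In Carm1, Atxn7l3 and the 4 NuRD genes the CD-CD values were in the longer format, and in Naa40 the CR-CD values. None of 19 further methyl writers, 7 further methyl erasers, 13 COMPASS subunits, 9 accessory genes of Polycomb repressive complex 2 and 21 genes of cofactor supply passed. The smallest p in these lists belonged to Setd5 (log2 fold change -0.24, adjusted p = 0.683), Phf2 (-0.27, 0.496), Ncoa6 (-0.42, 0.189), Rbbp7 (0.13, 0.908) and D2hgdh (0.23, 0.808). Ncoa6, a subunit shared by the Kmt2c and Kmt2d complexes, was at 7.62, 7.46 and 7.34 in CR-CD and 8.01, 7.84 and 7.83 in CD-CD, without overlap.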

How the data were processed

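Liver RNA was measured in 6 samples on a whole-transcript Affymetrix mouse array. The deposited values are log2 signals, which the authors normalized in GeneSpring v 12.5. The summarization of probes, filters and genome build are not given in the sources used here. The table holds 33793 probe sets with values from 3.63 to 13.9 and array medians from 5.48 to 5.54, and 0 columns were left out. Precision is limited by having 3 arrays a group. Symbols came from the platform annotation (23521 probe sets with 1 symbol, 1820 with several, 8452 unnamed), and no member symbol needed an update through the RefSeq gene table. A value was said to be in the longer format where it was not the shortest decimal of a single-precision number, as in 428 probe sets.

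The group contrast was fitted by lmFit and eBayes (limma 3.58.1, R 4.3.3) with 4 residual degrees of freedom plus 2.98 from the prior. Adjusted p is Benjamini-Hochberg over all genes. The script was tested on simulated data. Named were the members past the adjusted p in any analysis or with an unadjusted p of at most 0.05, those with values in the longer format, the brightest 2, the dimmest and the most changed of each class, relatives of those called, and in each list of other genes those past the adjusted p and the smallest p. Other members were named, and the 3 pairs of related enzymes compared, after their values were seen. The members and lists were chosen with earlier results of these data known. Deviations of same-numbered arrays from the group means had correlations over genes of 0.407, 0.208 and 0.201, each above the limit of 0.1, but CR-CD 3 with CD-CD 2 gave 0.261 and CR-CD 2 with CD-CD 3 gave 0.107, so for replicates 2 and 3 the data do not single out the same number, and no label pairs the samples. A fit with the number as a block was run beside the one without it. Further alternatives were quantile normalization, median centring, a 40th percentile filter, robust variances with a trend on intensity, the t-test of the methods, averaging probe sets per gene, testing each probe set, leaving out each array, and leaving out probe sets in the longer format. Promoter windows came from a RefSeq table on GRCm38.p6. Python 3.11.15 (pandas 2.3.3, matplotlib 3.10.9) made the tables and plots.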

Additional observations from a re-analysis of the deposited data

How the results depend on the processing

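Without probe sets in the longer format there were 0 genes and 0 members past the adjusted p and 0 members past the fold and p thresholds of the methods, partly by construction, since 315 of 329 calls lie in such probe sets. In the other alternatives, 275 to 355 genes and 3 to 5 members passed the adjusted p, and 3 members passed the thresholds of the methods. The replicate block gave 339 genes and 3 members, losing Kdm6b (adjusted p = 0.0784 at an unchanged log2 fold change of -0.45), and changed no other call among the named genes. Leaving out 1 array at a time gave 9 to 14 members with an unadjusted p of at most 0.05 and 35 to 39 with a lower mean in CR-CD. The matching shares of all genes were not counted for these fits. The member counts were added after the data were seen, as were the alternatives for the genes outside the members.

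Kdm6b also did not pass with an intensity trend (adjusted p = 0.0683, the fold again unchanged). Averaging its probe sets put Chd3 at -0.32 (adjusted p = 0.507), and without the longer format the remaining probe sets of Chd3 and Naa40 were at -0.01 and 0.06. Of the members, only those named by the stated rule had fold changes listed without 1 array. The directions of the other members, Hdac11 and Sirt7 among them, were not examined in this way. Among the members named by the rule that did not pass, leaving out 1 array turned the direction of Eed (log2 fold changes from -0.02 to 0.13), Hdac9 (-0.14 to 0.09), Kat2b (-0.28 to 0.10), Kat5 (-0.02 to 0.05), Kdm5c (-0.40 to 0.03), Kdm6a (-0.22 to 0.00), Setd7 (-0.01 to 0.06), Sirt2 (-0.03 to 0.05) and Sirt3 (-0.18 to 0.17), so their directions are not settled by these arrays. The cause of these shifts was not tested.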
